A study of Mus musculus with 2 samples.

Results

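The genes described here are 10 apoptosis regulators, 9 of the Bcl2 family and the death receptor gene Fas, out of 27998 genes in the deposited count tables. They were chosen by symbol, each symbol had 1 gene identifier, and their UMIs were summed over the cells of each cell type, stage and library. UMIs (unique molecular identifiers) mark single captured RNA molecules. The cells came from 1 wild-type C57BL/6 mouse liver at E12.5, with no treatment, and were processed as 2 technical replicate libraries after sorting had removed debris, dead cells and doublets. The deposited table names 10537 cells in both libraries together. It names HPSC (hematopoietic stem and progenitor cells), the erythroid subclusters Ery 1 to Ery 6, and 6 other types. The 6 others are primitive erythroid cells (EryP), megakaryocytes (Mk), granulocytic cells (G), monocytes and Kupffer cells (Mo/KC), endothelial cells (EC) and hepatocytic cells (Hepa). Ery 1 to Ery 6 are read here, in the order of their numbers, as stages of a path after HPSC. The names themselves give no such path. Ery 5 and Ery 6 together are called late erythroblasts below.

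Proteins of the Bcl2 family decide whether the outer mitochondrial membrane stays closed. Bcl2, Bcl-xL (from Bcl2l1) and Mcl1 keep it closed by holding the pore formers Bax and Bak1 in check, and the initiators Bim (from Bcl2l11), Bad, Bid and Noxa (from Pmaip1) oppose these guardians. Open pores release cytochrome c, which starts the caspases. Fas is a surface receptor that activates caspase-8 and through it Bid. In the fetal liver, erythroid cells depend on erythropoietin and on Bcl-xL for their survival, and stem and early progenitor cells on Mcl1.

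The unit throughout is UMIs per 1000000 UMIs of the same cells (CPM), with an exact Poisson 95% interval that covers counting error only. Both libraries came from 1 liver, so no test between animals was possible and no p-value is given. HPSC numbered 213 cells in library 1 and 208 in library 2, and late erythroblasts 1715 and 1766. Of 36 markers checked, 30 had their highest level in the type they mark in both libraries. The 4 markers of the deposited type Ery, which holds Ery 1 and Ery 2 only, were not among them. Klf1 and Car1 were highest in Eryb (Ery 3 to Ery 6) in library 1 and in Ery in library 2. Tfrc was highest in Eryb and Gata1 in Mk in both libraries. Of the other 2 markers, Myb was highest in G and Hba-a1 in EryP. The HPSC markers Kit, Cd34, Myb and Cd48 summed to 749 and 665 CPM in HPSC and to 6.04 and 2.47 CPM in late erythroblasts. Alpha and beta globin took 1.59% and 2.94% of the UMIs of HPSC but 55.7% and 76.6% of those of late erythroblasts, in libraries 1 and 2. A share of one gene lowers the CPM of all others, so the members' ratios of late erythroblasts over HPSC are also given with globin left out of the total and per cell. Other ratios are in CPM unless said. Among 6956 genes with a mean of at least 5 CPM over the 7 stages, the median log2 ratio of late erythroblasts over HPSC was -2.09 in library 1 and -2.90 in library 2. With globin left out it was -0.93 and -0.85.

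Bcl2l1 was the 1 member past the fold in the upward direction in CPM, and its ratio was above 1 on each of the 4 scales tried (CPM, globin left out, per cell and divided by the median of all ratios). Its level was 31.6 CPM (95% interval 25.9 to 38.1) in HPSC of library 1 and 34.2 CPM (28.1 to 41.4) in library 2. In Ery 1 it was 14.9 and 17.6 CPM, so the first erythroid stage stood below HPSC in CPM in both libraries. Per cell, the interval of Ery 1 over HPSC included 1 in library 2 (0.687 to 1.14). From Ery 2 to Ery 6 the level was 15.0, 39.1, 115, 231 and 454 CPM in library 1. Library 2 gave 20.8, 31.9, 77.2, 129 and 256 CPM. Each stage from Ery 3 on lay above the stage before it in CPM, with intervals that did not overlap within a library, while the CPM of Ery 1 and Ery 2 did not differ beyond their intervals. Late erythroblasts held 379 and 209 CPM in libraries 1 and 2. The log2 ratio to HPSC was 3.58 in library 1 (ratio between 9.90 and 14.6, 95% interval) and 2.61 in library 2 (between 5.02 and 7.46). With globin left out of the total, the level went from 32.1 to 855 CPM in library 1 and from 35.3 to 891 CPM in library 2, ratios of 26.6 (22.0 to 32.5) and 25.2 (20.8 to 30.9). A mean cell held 0.512 and 0.514 UMIs of Bcl2l1 in HPSC and 1.90 and 1.86 in late erythroblasts, a ratio of 3.72 and 3.62 per cell. The median cell held 16053 and 14956 UMIs in HPSC and 4763 and 8503 in late erythroblasts.

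**Figure D1:**
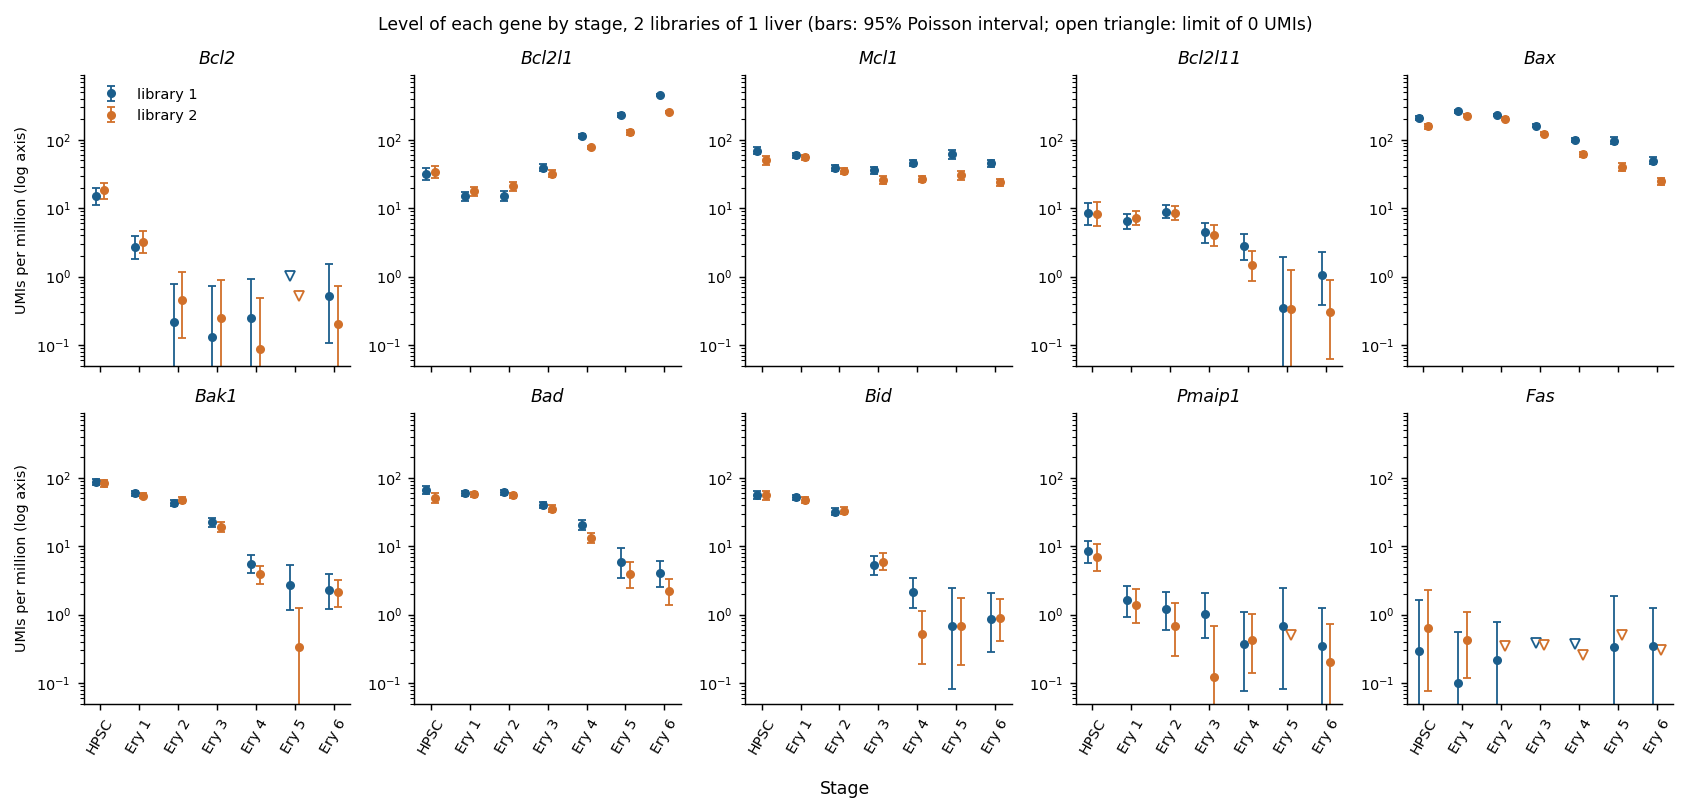
Level of each of the 10 genes (CPM, log axis) in HPSC and in stages Ery 1 to Ery 6, with library 1 in blue and library 2 in orange. Points carry exact Poisson 95% intervals, cut at the lower edge of the axis where they reach further, and open triangles mark the limit that 0 UMIs allow. Bcl2l1 goes from 14.9 and 17.6 CPM in Ery 1 to 454 and 256 CPM in Ery 6, and Bcl2, Bak1, Bad and Bid are lower in Ery 6 than in HPSC.

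Free RNA, measured in barcodes with 1 to 50 UMIs, held 118 and 105 CPM of Bcl2l1 in libraries 1 and 2. That is more than HPSC and each stage from Ery 1 to Ery 4 (115 and 77.2 CPM) held themselves. Ery 5 and Ery 6 held more than free RNA. The globin level of HPSC allows free RNA to make up at most 7.62% of their UMIs in library 1 and 7.48% in library 2. At that share 30.9 of the 109 Bcl2l1 UMIs of HPSC in library 1 and 24.5 of the 107 in library 2 would be free RNA. In Ery 1 the same bound gave 59.5 of 147 and 58.6 of 163 UMIs. In Ery 2 it gave 171 and 172 UMIs, beside 138 and 181 counted. From Ery 3 on the globin level sets little limit: the bound was 682 and 622 UMIs beside 301 and 261 counted in Ery 3, and 935 and 1206 beside 913 and 891 in Ery 4. The levels of Bcl2l1 up to Ery 4 are thus not separated from free RNA by this bound, apart from HPSC and Ery 1. In Ery 6, even a share of 100% would give 669 and 1036 UMIs, beside 2586 and 2536 counted. With free RNA subtracted at a share of 10% of each stage, the mean log2 ratio of Bcl2l1 over both libraries was 3.63, beside 3.09 without. That share is above the bound of HPSC. It takes 40.5 and 32.7 Bcl2l1 UMIs from HPSC, beside 30.9 and 24.5 at the bound. Other members were counted further below a full share in Ery 4. Bid had 17 and 6 UMIs there, beside 189 and 171 at a share of 100%, and Bcl2 had 2 and 1, beside 109 and 29.4. A bound from such genes was not tested for any member, nor was the part of free RNA in any single cell.

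Bcl2l1 lies on the minus strand of chromosome 2 (GRCm38 chr2:152780668-152831728), and RefSeq gives 3 promoter windows for it in build GRCm38.p6. They are shown because erythroid factors are known to act on this gene. The binding letters of GATA factors (AGATAA or TGATAA, either strand) were present once in 1 of the 3 windows of 300 bases and in none of the 10 windows found for the other members. Of all 32851 windows of the table, 18.6% hold a match. The CACCC box, either strand, was found in 8 of the 13 windows of 300 bases of 9 members, beside 57.5% of all windows. The STAT letters TTCNNNGAA were found in 1 of the 13, that of Fas, beside 8.30% of all. Both sequences below are the 250 bases before a start, on the minus strand, 5′ to 3′, with GATA and CACCC matches in capitals (GGGTG is CACCC on the other strand). The first ends at the start nearest to the 3′ end of the gene and the second at the start farthest from it.
Bcl2l1 promoter at chr2:152828490-152828739: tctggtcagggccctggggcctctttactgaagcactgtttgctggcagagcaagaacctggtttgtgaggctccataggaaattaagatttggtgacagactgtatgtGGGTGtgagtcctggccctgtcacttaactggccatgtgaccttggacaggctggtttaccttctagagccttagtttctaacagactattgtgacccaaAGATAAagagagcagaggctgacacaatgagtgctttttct
Bcl2l1 promoter at chr2:152831729-152831978: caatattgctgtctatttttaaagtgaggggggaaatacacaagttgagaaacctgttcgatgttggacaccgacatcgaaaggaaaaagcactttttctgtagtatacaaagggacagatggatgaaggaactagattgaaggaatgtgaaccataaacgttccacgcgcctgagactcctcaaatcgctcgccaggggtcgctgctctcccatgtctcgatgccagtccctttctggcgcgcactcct
The AGATAA match begins 41 bases before the start in the first window, and the second holds none of the 3 motifs. A match of letters is a description and not a binding site. The counts come from the 3′ end of transcripts, so they tell neither which of the 3 starts was used nor the long from the short splice form of Bcl2l1.

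The other 2 guardians went different ways. Bcl2, the founding survival gene of the family, was a gene of HPSC within this path: it had 52 UMIs (15.1 CPM, 11.3 to 19.8) in library 1 and 57 UMIs (18.2 CPM, 13.8 to 23.6) in library 2. Ery 1 held 2.73 and 3.23 CPM, and Ery 2 held 2 and 4 UMIs, 0.218 and 0.460 CPM. From Ery 2 on, Bcl2 was at most at 0.527 CPM in either library, and Ery 5 had 0 UMIs in both, which allows up to 1.03 CPM (3 UMIs) in library 1 and 0.512 CPM in library 2. The step from HPSC to Ery 1 was 5.51-fold (3.40 to 9.13) down in library 1 and 5.65-fold (3.57 to 9.10) in library 2. Late erythroblasts held 3 and 2 UMIs, a ratio to HPSC of 0.0231 (0.00461 to 0.0713) and 0.00695 (0.000822 to 0.0263). With globin left out it was 0.0513 (0.0103 to 0.159) and 0.0288 (0.00341 to 0.109), and per cell 0.00717 and 0.00413. At a free RNA share of 10%, 11.8 and 4.02 Bcl2 UMIs would be expected in late erythroblasts, more than were counted. Bcl2 had a mean under 5 CPM over the 7 stages and so is in no count below at that floor.

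Mcl1 was the guardian with the smallest difference between the ends of the path in CPM. Its level was 69.6 CPM (61.1 to 79.0) in HPSC of library 1 and 49.9 CPM (42.4 to 58.4) in library 2. Along Ery 1 to Ery 6 it was 59.0, 39.1, 35.6, 46.0, 61.3 and 45.5 CPM in library 1. Library 2 gave 55.2, 35.0, 25.7, 26.8, 30.4 and 23.9 CPM. It had its clearest step between Ery 1 and Ery 2, with ratios of 0.662 (0.579 to 0.756) and 0.634 (0.549 to 0.732). Late erythroblasts over HPSC gave 0.731 (0.623 to 0.859) in library 1 and 0.527 (0.438 to 0.638) in library 2, but this direction depends on the scale: with globin left out the ratios were 1.62 (1.38 to 1.91) and 2.18 (1.81 to 2.64), and per cell they were 0.227 and 0.313. The free RNA bound of Mcl1 was 476 and 571 UMIs in late erythroblasts, beside 438 and 415 counted. In Ery 3 it was 320 and 215 beside 274 and 210, and 439 and 418 beside 366 and 309 in Ery 4. The levels of Mcl1 in these stages are thus not separated from free RNA by this bound. In late erythroblasts the same bound gave 205 and 233 UMIs of Bid, beside 7 and 13 counted. A bound for Mcl1 from the counts of Bid was not tested. On the CPM scale only 22.3% of the 6956 genes in library 1 and 18.2% in library 2 had a higher ratio than Mcl1. For Bcl2l1 these percentages were 2.76% and 3.08%.

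A share within the guardians does not involve the total of UMIs. Bcl2l1 made up 27.2% (exact binomial 95% interval 22.9 to 31.8) of the UMIs of Bcl2, Bcl2l1 and Mcl1 in HPSC of library 1 and 33.4% in library 2. It made up 19.4% and 23.1% in Ery 1, 52.3% and 55.2% in Ery 3, and 90.8% (89.7 to 91.8) and 91.4% (90.3 to 92.4) in Ery 6. In late erythroblasts the share was 88.1% and 88.7%. The libraries were within 1 percentage point of each other there, while their Bcl2l1 levels in CPM differed. Shares of UMIs compare stages, not amounts of protein, and were not divided by transcript length. They can hold free RNA, whose bound was above the Bcl2l1 counts of Ery 3 and Ery 4 in both libraries. The part of free RNA in the shares of these stages was not tested.

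Of the pore formers, Bax was at 65.4 and 30.4 CPM in late erythroblasts and Bak1 at 2.44 and 1.46 CPM. Bax was at 209 and 158 CPM in HPSC and highest in Ery 1, at 260 CPM (250 to 270) and 226 CPM (216 to 236). In Ery 6 it was at 49.2 and 24.6 CPM. Late erythroblasts over HPSC gave 0.312 (0.279 to 0.349) and 0.193 (0.170 to 0.219) for Bax in CPM and 0.694 (0.620 to 0.776) and 0.800 (0.704 to 0.909) with globin left out, but above 1 when the ratios were divided by their median over all genes (mean log2 ratio 0.47). Bak1 was at 87.6 CPM (78.0 to 98.0) and 83.2 CPM (73.4 to 94.0) in HPSC. It was at 59.6, 43.1, 22.4, 5.53, 2.74 and 2.28 CPM from Ery 1 to Ery 6 of library 1. Library 2 gave 54.8, 47.3, 19.3, 3.90, 0.341 and 2.12 CPM. Ery 4 over Ery 3 gave ratios of 0.247 (0.173 to 0.346) and 0.202 (0.142 to 0.283). Late erythroblasts held 21 and 23 UMIs of Bak1 in all, 35.9-fold (23.1 to 58.9) and 57.0-fold (37.2 to 91.6) below HPSC in CPM and 16.2-fold and 13.8-fold below with globin left out. At a free RNA share of 10%, 30.5 and 34.6 Bak1 UMIs would be expected in late erythroblasts, more than were counted. Their low Bak1 level is thus not separated from free RNA. Bax had 563 and 480 UMIs in late erythroblasts, beside 161 and 214 expected at a share of 10%. The bound set by globin was 1614 and 2139 UMIs of Bax, so this bound alone does not separate its level from free RNA. The same bound was 305 and 346 UMIs of Bak1, beside the 21 and 23 counted. A bound for Bax from the counts of Bak1 was not tested. Of the UMIs of both pore formers, Bax made up 70.5% and 65.5% in HPSC and 96.4% and 95.4% in late erythroblasts.

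The initiators did not all have their first large step at the same stage. Pmaip1 had 29 and 22 UMIs in HPSC (8.41 and 7.04 CPM) and 1.62 and 1.40 CPM in Ery 1, ratios of 0.193 (0.0978 to 0.367) and 0.199 (0.0920 to 0.413). No later step between neighbouring stages of Pmaip1 had an interval that excluded 1 in either library. Bid was still at 32.2 and 33.3 CPM in Ery 2, after 56.8 and 55.7 CPM in HPSC. In Ery 3 it was at 5.33 CPM (3.82 to 7.23) and 5.99 CPM (4.43 to 7.91), ratios to Ery 2 of 0.165 (0.116 to 0.230) and 0.180 (0.130 to 0.244). In Ery 4 it was at 2.14 and 0.520 CPM, ratios to Ery 3 of 0.401 (0.214 to 0.722) and 0.0869 (0.0304 to 0.203). Bad was at 65.8 and 51.2 CPM in HPSC, at 61.8 and 55.4 CPM in Ery 2 and at 20.5 and 13.3 CPM in Ery 4. Its largest step was from Ery 4 to Ery 5, with ratios of 0.284 (0.162 to 0.469) and 0.296 (0.182 to 0.461). Bcl2l11 was low throughout, at 8.41 and 8.32 CPM in HPSC and 8.93 and 8.50 CPM in Ery 2. Ery 3 over Ery 2 gave 0.495 (0.322 to 0.747) and 0.474 (0.305 to 0.724) for it, and it had 7 and 5 UMIs in all late erythroblasts (0.813 and 0.317 CPM). Late erythroblasts over HPSC gave 0.0143 and 0.0148 for Bid, 0.0706 and 0.0557 for Bad, 0.0967 and 0.0381 for Bcl2l11 and 0.0552 and 0.0180 for Pmaip1 in CPM. With globin left out these were 0.0318 and 0.0614, 0.157 and 0.231, 0.215 and 0.158, and 0.123 and 0.0747, so all 4 stayed below 1 on that scale. The intervals of all these ratios excluded 1 on both scales. At a free RNA share of 10%, 20.5 and 23.3 Bid UMIs would be expected in late erythroblasts, beside 7 and 13 counted. For Bad these were 32.3 and 48.3 beside 40 and 45. For Bcl2l11 they were 6.11 and 11.3 beside 7 and 5, and for Pmaip1 1.75 and 3.22 beside 4 and 2. Per cell, late erythroblasts over HPSC gave 0.0968 and 0.115 for Bax, 0.00864 and 0.0104 for Bak1, and between 0.00444 (Bid, library 1) and 0.0331 (Bad, library 2) for the initiators.

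**Figure D2:**
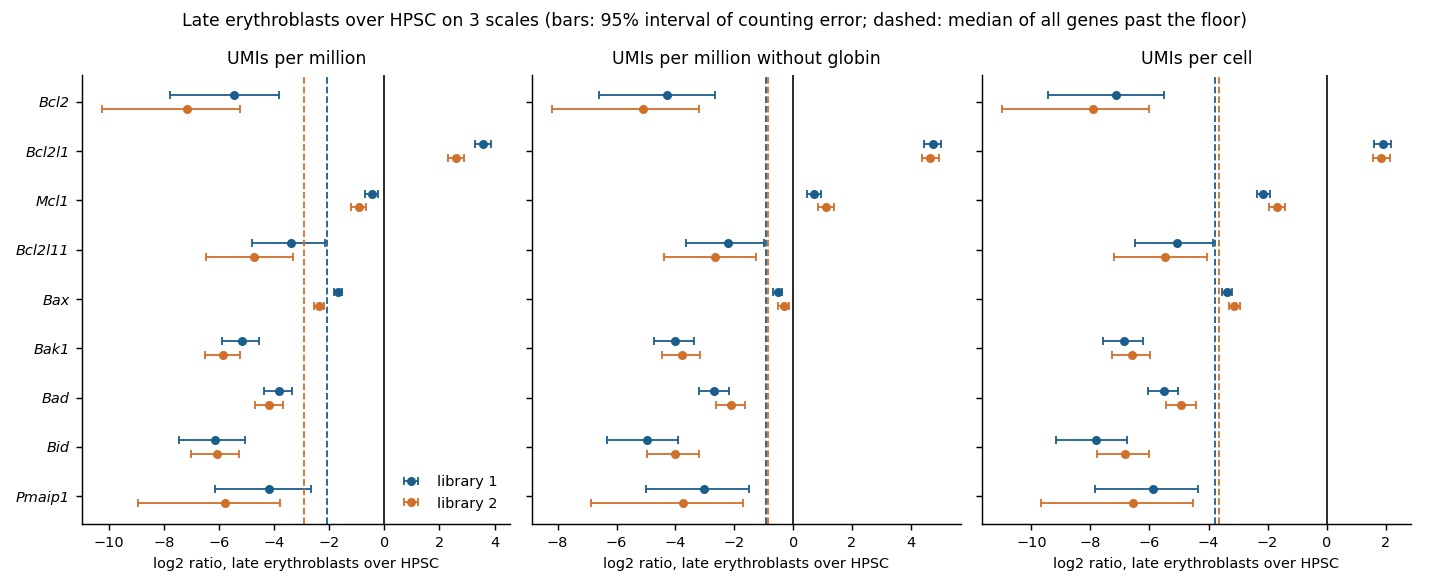
Log2 ratio of late erythroblasts over HPSC for 9 genes in CPM (left), in CPM with globin left out of the total (middle) and in UMIs per cell (right), with library 1 in blue and library 2 in orange. Bars are 95% intervals of counting error and dashed lines the median of the 6956 genes past the floor of 5 CPM. Bcl2l1 is the gene to the right of 0 in all panels, and Mcl1 changes side once globin is left out.

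Fas, the death receptor gene, had few UMIs along the path. HPSC had 1 and 2 UMIs, Ery 1 to Ery 6 together 6 and 4, and late erythroblasts 3 and 0. No stage had more than 4 UMIs, and no ratio is given. Free RNA alone held 7 UMIs of Fas in library 1 and 0 in library 2.

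The members were then counted beside all genes. Of the 6 members past the floor of 5 CPM, 4 (Bax, Bak1, Bad and Bid) were at least 2-fold lower in late erythroblasts than in HPSC in both libraries, beside 70.4% of all genes tested. A share of 4 in 6 is near that background. The members under the floor were Bcl2, Bcl2l11, Pmaip1 and Fas. A single member, Bcl2l1, was at least 2-fold higher in both libraries, beside 6.97% of all genes. With globin left out of the total, 3 (Bak1, Bad and Bid) were lower, beside 45.0% of genes, and Bcl2l1 was higher, beside 18.0%. With a floor of 1 CPM, chosen after the data had been seen, 9 members were counted. Of these, 7 were lower, beside 73.5% of 9679 genes, and Bcl2l1 was again the 1 that was higher, beside 6.19%. The median log2 ratio of the 6 members was -2.75 in library 1 and -3.27 in library 2.

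The make-up of the family as a whole differed between Ery 2 and Ery 6. The guardians Bcl2, Bcl2l1 and Mcl1 gave 21.0% (19.2 to 22.9) of the UMIs of the 9 family genes in HPSC of library 1 and 22.0% (19.9 to 24.2) in library 2. They gave 14.9% and 16.2% in Ery 1. In Ery 2, their lowest share, the interval was 11.5% to 13.6% in library 1 and 12.8% to 15.1% in library 2. They then gave 24.2% and 23.5% in Ery 3, 55.3% and 56.4% in Ery 4, 73.2% and 77.7% in Ery 5, and 89.6% (88.5 to 90.7) and 90.2% (89.1 to 91.2) in Ery 6. Apart from Ery 5, the libraries were within 2 percentage points of each other at each stage. The initiators gave 25.2% and 26.3% in HPSC, 8.85% and 8.49% in Ery 4 and 1.13% and 1.17% in Ery 6. Free RNA can be part of all these shares, and its part was not tested.

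**Figure D3:**
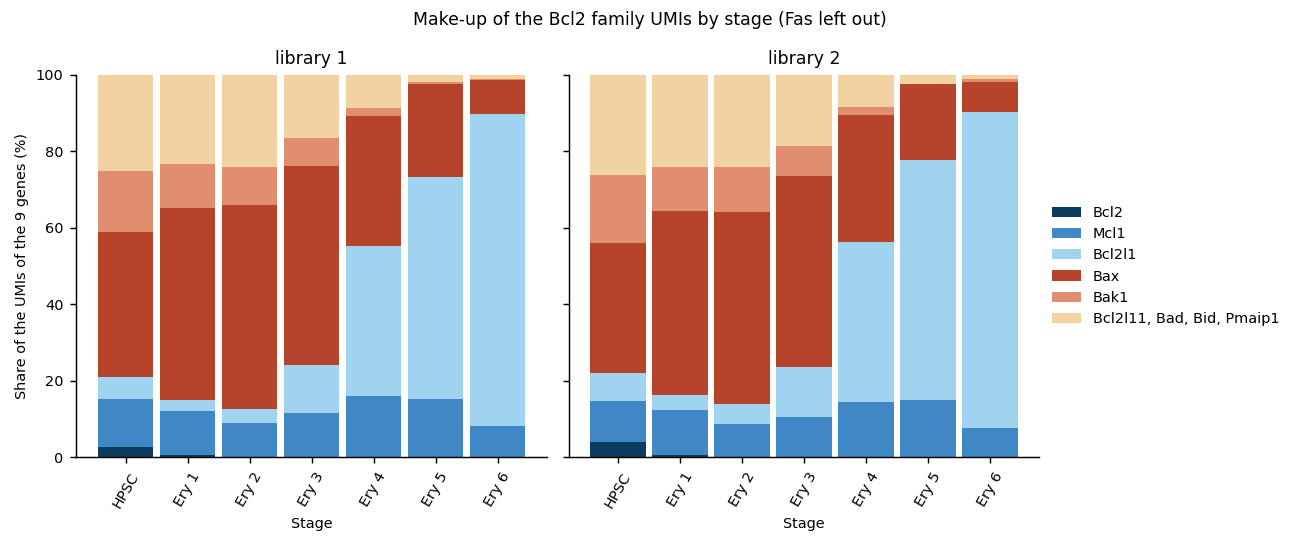
Share (%) of the UMIs of the 9 family genes that came from each gene or group, by stage, in library 1 (left) and library 2 (right). The blue parts are the guardians, which together go from 14.9% and 16.2% in Ery 1 to 89.6% and 90.2% in Ery 6, where Bcl2l1 is 90.8% and 91.4% of them.

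The genes were also followed without the deposited stages. All Ery and Eryb cells, the early and late erythroid types of the deposited table, were ordered by their globin share into 10 groups of nearly equal size per library. The median globin share ran from 0.828% to 64.5% in library 1 and from 0.980% to 83.6% in library 2. A mean cell held 0.307 UMIs of Bcl2l1 in the lowest group and 2.31 in the highest in library 1, and 0.366 and 2.51 in library 2. The number was higher from group to group from the third group on in both libraries. For Bak1 the mean was 1.33 and 1.37 UMIs per cell in the lowest group and 0.00632 and 0.0113 in the highest. Mcl1 was at 1.26 and 1.28 in the lowest group, at 0.316 and 0.312 in the eighth and at 0.158 and 0.149 in the highest. This direction again depends on the scale. With globin left out of the total, Mcl1 was at 56.0 and 51.8 CPM in the lowest group and at 105 and 112 CPM in the highest. Globin is itself a measure of these cells, so the order and the levels share their libraries and depth.

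**Figure D4:**
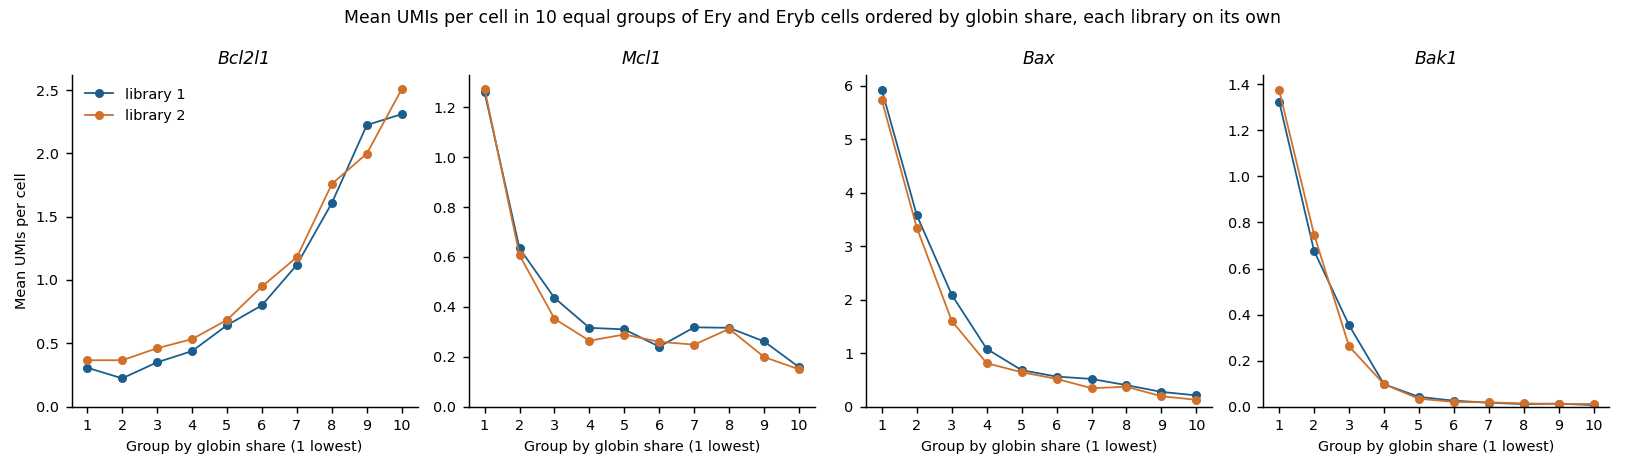
Mean UMIs per cell of Bcl2l1, Mcl1, Bax and Bak1 in 10 nearly equal groups of Ery and Eryb cells ordered by globin share, from lowest (1) to highest (10), with library 1 in blue and library 2 in orange. Bcl2l1 goes up to 2.31 and 2.51 UMIs per cell and the other 3 genes are lower per cell in group 10 than in group 1. In CPM with globin left out, not drawn here, Mcl1 is higher in group 10.

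In single cells, depth sets how often a gene is seen. A UMI of Bcl2l1 was found in 35.7% and 36.5% of HPSC and in 77.9% and 76.5% of late erythroblasts. After thinning each cell to 3600 UMIs, with shallower cells left out, the share was 10.6% of 211 and 11.2% of 208 HPSC. In late erythroblasts it was 68.1% of the 1458 cells kept of 1715 in library 1, and 49.6% of all 1766 in library 2. The thinned share was lowest in Hepa of library 1, of whose 33 cells (median depth 22391 UMIs) 24 were kept, and, in library 2, in EC, at 6.71% of 26 cells (median 15744.5). It was 7.16% in Ery 1 of library 2. For Bcl2 the thinned share was 4.40% and 4.76% in HPSC and 0.166% and 0.0446% in late erythroblasts. Without thinning, Bcl2 was found in 14.1% and 13.5% of HPSC. For Mcl1 the thinned shares were 22.4% and 16.5% in HPSC and 16.2% and 8.83% in late erythroblasts, and for Bax 51.7% and 40.6% against 20.2% and 9.82%. Globin was kept in the 3600 UMIs. It took 1.59% and 2.94% of the UMIs of HPSC but 55.7% and 76.6% of those of late erythroblasts. Thinning thus leaves fewer UMIs of other genes in late erythroblasts, and thinning without globin was not tested.

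Outside the path from HPSC to Ery 6, the guardians differed between cell types. EryP, the primitive erythroid cells that come from the yolk sac, held 162 CPM (137 to 189) and 136 CPM (113 to 161) of Bcl2l1, the highest point value of the 6 other types in both libraries. Their Mcl1 was at 10.4 and 5.18 CPM, 0.205 (0.0977 to 0.381) and 0.197 (0.0635 to 0.463) of late erythroblasts, and 0.390 and 0.264 of them with globin left out. They had 0 UMIs of Bcl2, Pmaip1 and Fas in both libraries, which allows up to 3.13 and 3.11 CPM. Bcl2l1 accordingly made up 93.9% and 96.3% of their guardian UMIs. The free RNA bound of Bcl2l1 in EryP was 113 of 155 UMIs in library 1 and 101 of 131 in library 2. Bax in EryP was at 71.0 and 47.6 CPM, and with globin left out at least 2.06 times late erythroblasts in both libraries. Its free RNA bound in EryP was 180 and 131 UMIs, beside 68 and 46 counted, so this bound does not separate it from free RNA.

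Mk came next for Bcl2l1, with 121 CPM (97.5 to 148) and 60.1 CPM (46.0 to 77.3). The interval of library 1 lies above that of library 2, and the median depth of the type was 5699 UMIs in 79 cells and 16944.5 in 56. Mk held 90.9 and 80.9 CPM of Mcl1. Mo/KC held 108 CPM (84.3 to 135) and 102 CPM (81.7 to 125) of Mcl1, with intervals that overlap those of Mk and EC in both libraries. Mo/KC also had the highest Bak1 (140 and 117 CPM) and the highest Pmaip1 (33.9 and 16.9 CPM), the latter 4.03 times (2.23 to 7.21) and 2.41 times (1.16 to 4.85) HPSC. Over G, the ratio of Pmaip1 in Mo/KC had an interval of 1.68 to 6.15 in library 1 and of 0.678 to 2.79 in library 2, which includes 1. G held 21.1 and 31.1 CPM of Bcl2l1 and 52.9 and 53.8 CPM of Bid, 0.930 (0.724 to 1.19) and 0.966 (0.749 to 1.24) of HPSC.

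EC had the highest Bcl2 level of the 6 other types, at 49.6 CPM (26.4 to 84.8, 13 UMIs) and 24.7 CPM (13.5 to 41.4, 14 UMIs). In library 1 this was 3.29 times HPSC (1.64 to 6.13), and in library 2 it was 1.35 times (0.697 to 2.46), which does not differ from HPSC beyond the interval. Bax had its highest point value in EC, at 294 and 319 CPM, but in library 1 the interval (232 to 367) overlaps those of Ery 1 and Mo/KC. Only 20 and 26 cells carry this label. Bcl2 was at 9.09 and 5.92 CPM in Mk, 5.82 and 7.91 CPM in G and at most 2.26 CPM in Mo/KC and Hepa. In Hepa, Mcl1 was at 67.2 and 45.7 CPM and Bcl2l1 at 9.37 and 23.5 CPM. The free RNA bound of Bcl2l1 was 6.56 UMIs beside 6 counted in Hepa of library 1 and 10.4 beside 19 in library 2, so no level of its own can be read in library 1. In G it was 18.3 of 40 UMIs and 22.6 of 59. For Bcl2 the bound was 2.13 of 11 and 0.550 of 15 UMIs in G, 0.807 of 7 and 0.373 of 6 in Mk, and 0.521 of 13 and 0.0791 of 14 in EC, so all 3 types held more Bcl2 than this bound. Fas was at 4.42 and 4.52 CPM in Mo/KC and 7.63 and 3.53 CPM in EC, from at most 4 UMIs each.

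**Figure D5:**
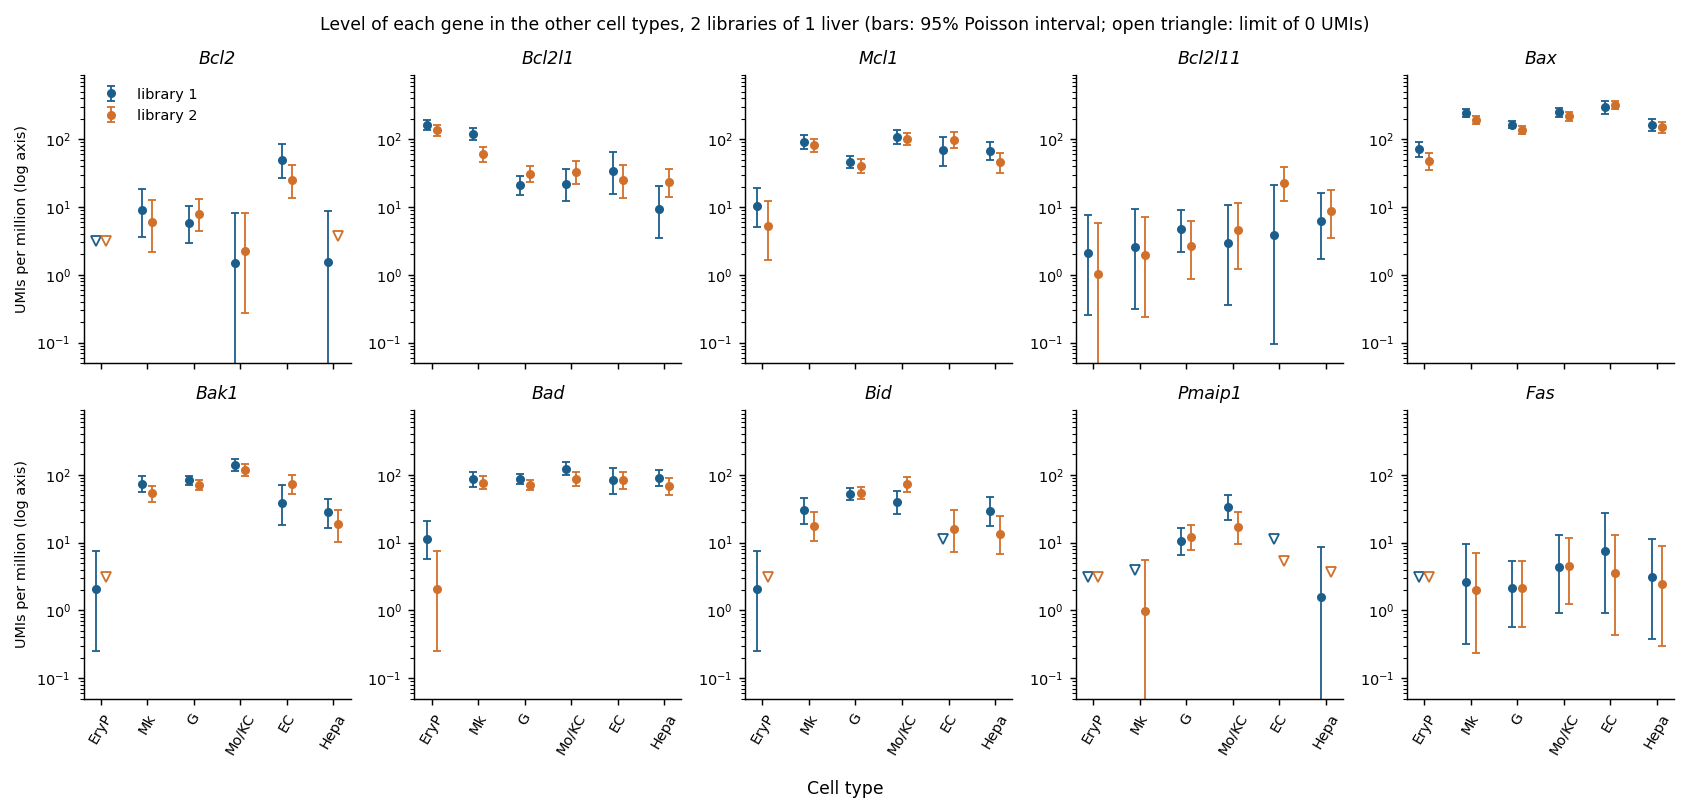
Level of each of the 10 genes (CPM, log axis) in the 6 other cell types, with library 1 in blue and library 2 in orange. Points carry exact Poisson 95% intervals and open triangles mark the limit that 0 UMIs allow. Bcl2 stands out in EC at 49.6 and 24.7 CPM and Pmaip1 in Mo/KC at 33.9 and 16.9 CPM. In CPM, Mcl1 is lowest in EryP at 10.4 and 5.18, from 10 and 5 UMIs. Globin took 76.7% and 82.5% of the UMIs of EryP, which lowers the CPM of their other genes.

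The rest of the pathway was read from a list of 52 genes, of which 35 passed the floor of 5 CPM. Of these 35, 23 (65.7%) were at least 2-fold lower in late erythroblasts in both libraries and 4 were higher, beside 70.4% and 6.97% of all genes tested, and with globin left out 16 were lower and 6 higher, beside 45.0% and 18.0% of all genes. Both counts are near the share over all genes. Their median log2 ratio was -2.34 in library 1 and -2.98 in library 2, beside -2.09 and -2.90 over all genes. In the death receptor arm 6 of 6 were lower, and 5 of 6 with globin left out, beside the same shares. They include Tnfrsf1a, a receptor for tumor necrosis factor, at 58.9 and 60.2 CPM in HPSC and 0.580 and 0.381 CPM in late erythroblasts. These late levels of Tnfrsf1a come from 5 and 6 UMIs. The initiator caspase gene Casp8 was at 79.2 and 65.6 CPM in HPSC and 1.74 and 1.14 CPM in late erythroblasts. Its adaptor Fadd was 9.99-fold and 17.1-fold lower. The folds of this pathway are in CPM, and all genes named as lower were also lower by at least 2-fold with globin left out. The part of free RNA in their counts was not tested. Among genes of execution 7 of 9 were lower, and 5 of 9 with globin left out, beside 70.4% and 45.0% of all genes. Of these, Casp6 was 20.6-fold and 32.1-fold lower, and the caspase substrate Parp1 30.0-fold and 46.7-fold. Dffb, the nuclease that cuts DNA, was 6.32-fold and 19.1-fold lower (log2 ratio -1.51 and -2.20 with globin left out).

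Of the 4 other family members past the floor, 1 was lower, Bcl2l12 (25.2-fold and 43.8-fold), beside 70.4% of all genes. Of the 4 inhibitors of apoptosis past the floor, 2 were lower and none was 2-fold higher in CPM, beside 70.4% and 6.97% of all genes. The survivin gene Birc5 and the family member Bcl2l13 were at least 2-fold higher with globin left out, but not in CPM, and both are named after their values were seen. Of the 12 upstream regulators, 7 were lower and 4 higher, beside 70.4% and 6.97% of all genes, and with globin left out 4 were lower and 4 higher, beside 45.0% and 18.0%. Trp53, which activates Bax, Pmaip1 and Fas under stress, was 15.7-fold and 29.7-fold lower (log2 ratio -2.82 and -2.84 with globin left out). Kit was 46.2-fold and 106-fold lower (-4.38 and -4.68 with globin left out), from 10 and 7 UMIs in late erythroblasts. Stat5a and Stat5b, which carry the erythropoietin signal, were 32.0-fold and 75.7-fold and 8.74-fold and 27.7-fold lower. Late erythroblasts had 5 and 4 UMIs of Stat5a and 14 and 8 of Stat5b. The 4 higher genes, named after their values were seen, were Foxo3, Pim1, Gata1 and Epor, the erythropoietin receptor. Epor was 12.6 and 8.70 times HPSC, at 113 and 69.6 CPM in late erythroblasts. Pim1, a survival kinase gene, went from 92.2 and 135 CPM to 738 and 500.3 CPM, Foxo3 from 37.1 and 33.3 CPM to 148 and 83.0 CPM, and Gata1 from 12.8 and 14.1 CPM to 171 and 92.2 CPM. Gata1 was already at 164 and 166 CPM in Ery 1, and in Ery 6 it was at 133 and 63.9 CPM.

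The genes whose course was most like that of a guardian were found by correlating log2(CPM + 1), centred within each library, over the 14 values of 7 stages in 2 libraries. These points share their libraries and depth, so the coefficients describe the course only. For Bcl2l1 they were Gpcpd1 (Pearson r = 0.9924), Cdkn1b, the cell cycle inhibitor p27 (r = 0.9904), and Grap2 (r = 0.9895), among 6950 genes. For Bcl2 they were Ramp1 (r = 0.9974), Tmem176a (r = 0.9967) and Igfbp4 (r = 0.9965). Mcl1 had no partner above 0.95, and the closest were G3bp2 (r = 0.9465), Herpud1 (r = 0.9285) and Add3 (r = 0.9262). As many as 218 genes passed 0.95 for Bcl2 and 45 for Bcl2l1.

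Some of the members overlap other annotated genes. Bcl2, Bak1, Bad and Bid each overlap a gene on the other strand that is in the deposited tables, for Bid its relative Bcl2l13. The sources used here do not state whether strand was used in counting, so reads from the shared stretches could not be assigned here. Bcl2l1 and Mcl1 overlap no other gene of the GENCODE annotation.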

How the data were processed

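Per the paper's methods, both 10x libraries are technical replicates from 1 liver at E12.5, and doublets were sorted out before encapsulation. No doublet caller was run. The values used are the UMI counts per library that the authors deposited, not normalized, together with their table of each cell's cluster and type. The submitters name Cell Ranger 2.1.1, genome mm10, and Seurat 3.2.0, while the header of library 1 gives a software version of 3.0.0. The series description speaks of 2 cell suspensions.

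Cells were joined to counts by barcode and library suffix. Library 1 kept 5480 cells with 51969226 UMIs and library 2 kept 5057 with 62738015, and 31 barcodes occur in both. Sums of UMIs per stage and library were scaled to CPM. Intervals (95%) are exact Poisson for levels, exact conditional binomial for ratios and Clopper-Pearson for shares, so they hold counting error alone. For 0 UMIs the limit is 3 UMIs. Calls needed a ratio of at least 2 in both libraries among genes with a mean of at least 5 CPM over HPSC and Ery 1 to Ery 6. Thinned shares are exact means over all draws of 3600 UMIs per cell, globin included. Calculations were tested on simulated data. Versions were Python 3.11.15 with scipy 1.17.1, pandas 2.3.3, numpy 2.4.6 and, for the plots, matplotlib 3.10.9.

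The 10 genes and all lists were chosen with earlier results of these data known. Of 52 further pathway genes, the text names the 12 with the largest mean absolute log2 ratio among those past the fold in both libraries, except 1 that is not reported here, and it names the 3 genes most like each guardian. Gene positions are from GENCODE vM21 (GRCm38) and promoter sequences from RefSeq (GRCm38.p6), which matched 9 of the 10 genes. Alternatives were 3 other scales, Ery 5 or Ery 6 alone, the third of Ery and Eryb cells with the highest globin share, cells with at least 1000 genes and under 10% mitochondrial UMIs, leaving out the 5% of cells with most UMIs, subtracting free RNA at 10%, each library alone, and other folds and floors.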

Additional observations from a re-analysis of the deposited data

How the results depend on the processing

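The count of 4 members at least 2-fold lower in late erythroblasts was between 3 and 5 under 13 alternatives, and 7 with a floor of 1 CPM, which was chosen after seeing the data and admits Bcl2, Bcl2l11 and Pmaip1. Bcl2l1 was past the fold upward in each of these settings, and the count of members higher was 2 instead of 1 when ratios were divided by their median, because Mcl1 joined it. The mean log2 ratio of Bcl2l1 over both libraries was 3.09. It was 4.70 with globin left out, 5.59 with ratios divided by their median, 1.87 per cell and 2.39 in Ery 5 alone, and 2.61 to 3.58 in single libraries. Its direction was the same in 11 of 11 alternatives. Its share of the guardian UMIs in late erythroblasts was 88.4%. It was 91.1% in Ery 6 alone, 79.96% in Ery 5 alone, 89.2% in the third of cells highest in globin, 82.1% in cells with at least 1000 genes and under 10% mitochondrial UMIs, 89.4% with free RNA subtracted, and 88.1% to 88.7% in single libraries. Bax turned to a log2 ratio of 0.47 with ratios divided by their median. Mcl1 was above 0 in 2 of 11 alternatives, at 0.91 with globin left out and 1.81 with ratios divided by their median. Bcl2, Bcl2l11, Bak1, Bad, Bid and Pmaip1 were below 0 in each alternative that gave a value. The causes of these shifts were not tested. Subtracting free RNA gave no value for members other than Bcl2l1, Mcl1 and Bax, Ery 5 alone and the cells with at least 1000 genes gave none for Bcl2 and Pmaip1, and the third highest in globin gave none for Pmaip1. For Fas no ratio could be formed in both libraries. No paired analysis was possible because all cells came from 1 liver, whose 2 libraries are the replicates of a single group, and no test was made. Low counts limit what can be read for Bcl2, Bcl2l11, Pmaip1 and Fas, which had at most 7 UMIs each in the late erythroblasts of a library. The late erythroblasts held 8613491 and 15764731 UMIs of all genes, beside 3449066 and 3124711 in HPSC.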
